A study of Mus musculus with 8 samples.

Results

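The genes of cholesterol and fatty acid synthesis, with those that control and export sterols, were examined in PD-1hi effector CD8 T cells sorted from the spleens of mice bearing a B cell leukaemia. Members were 40 listed genes, of which 36 had an array row named for exactly 1 gene, out of 22180 genes measured in this way. Idi1 and Scd2 were present only on rows named for several genes, and Acat2 and Nr1h2 had no named row, so these 4 are without values here. Of several rows of a gene, the brightest over all 8 arrays was taken. The list was divided into 19 enzymes of sterol synthesis (17 measured), 6 genes of SREBP control and sterol transfer (6 measured), 10 genes of fatty acid synthesis (9 measured) and 5 genes of the liver X receptors (LXR) and sterol export (4 measured).

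All mice were female C57BL/6 animals that had received chronic lymphocytic leukaemia cells from Eµ-TCL1 mice, in which the Eµ enhancer drives the TCL1 oncogene in B cells. From week 3 after the transfer, for 2 weeks, the mice behind 4 samples received an antibody that blocks the interleukin 10 receptor (anti-IL-10R) and those behind the other 4 an isotype control antibody, and spleens were taken in week 5. Every group therefore carried the leukaemia, no leukaemia-free mice are part of the comparison, and the age of the mice is not given in the sources used here. Sorted cells were lineage-negative, TCR beta-positive, CD8-positive, CD127-low, CD44-intermediate to high and PD-1-high, and 1 array was hybridised per sample. The comparison asks what blockade of the receptor changed in these T cells.

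Cells make cholesterol from acetyl-CoA through mevalonate, isoprenoids, squalene and lanosterol, and they make fatty acids from the same acetyl-CoA. When membrane sterol is scarce, the escort protein SCAP carries the SREBP transcription factors from the endoplasmic reticulum to the Golgi, where they are cut and released to the nucleus to raise the genes of both routes. INSIG proteins hold SCAP back when sterol is plentiful, and oxysterols then activate LXR, which raises sterol exporters. T cells raise both synthetic routes after activation, when they build membrane to divide.

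Values are log2 signals, and each gene has its own probes, so signals are compared between arrays and not between genes. A difference is the anti-IL-10R mean less the isotype mean, and a gene was called at a Benjamini-Hochberg adjusted p below 0.05 over 12019 tested genes, those with a mean signal of at least 5.24. Isotype replicate 1 stood apart before any member was considered: over the tested genes it correlated with the other arrays at 0.915 to 0.929, and the others with one another at 0.962 to 0.986, across genes that are not independent. Results are given with and without it. The CD8 T cell markers Cd3e, Cd3d, Cd8a, Cd8b1 and Pdcd1 were bright on all arrays, with list means of 11.38 to 11.72 (isotype) and 11.90 to 11.93 (anti-IL-10R). For 4 of these 5, all but Cd3d, every anti-IL-10R array lay above every isotype array, against 9.32% of all tested genes, and none was called. Pdcd1, the gene of the sort marker PD-1, had a signal of 10.34 in isotype replicate 1 and of 11.10 to 11.55 elsewhere. Cd3e, Cd3d and Cd8b1 were also lowest in isotype replicate 1, and Cd8a was lowest in isotype replicate 2. Of 9 B cell markers 3 passed the limit for dim genes. The mean over all 9 was 4.88 to 5.44 in isotype and 4.84 to 5.00 in anti-IL-10R arrays. Of 11 myeloid markers 6 passed, with means over all 11 of 5.49 to 5.71 and 5.31 to 5.56. Of 4 CD4 T cell markers 2 passed, with means over all 4 of 5.15 to 5.94 and 5.08 to 5.38. Neither of 2 erythroid markers passed. Over the passing markers alone, B cell means were 5.48 to 6.19 (isotype) and 5.3 to 5.76 (anti-IL-10R). Myeloid means were then 6.25 to 6.37 and 6.02 to 6.37, and CD4 T cell means 5.72 to 7.03 and 5.61 to 5.91. Cd68 and Itgax of myeloid cells had signals of 8.41 to 9.38 and 6.17 to 7.46 over the 8 arrays. In isotype replicate 1, Foxp3, the transcription factor of regulatory T cells, had a signal of 7.97, where no other array exceeded 5.95 and the lowest had 5.08. That array also had the highest signals of Cd79a of B cells (6.80, at most 5.91 elsewhere) and of Lyz2 and Cd14 of myeloid cells (6.66 and 5.01, at most 5.67 and 4.0 elsewhere). Other markers on these lists went the other way, as Cd79b and Cd68 had their lowest signals of all 8 arrays there (5.61 and 8.41). Ms4a1 and Cd79b of B cells were highest in isotype replicate 3 (6.10 and 6.82). Cd4, on the CD4 T cell list with Foxp3 but below the limit for dim genes, also had its highest signal in isotype replicate 1 (5.46). Zbtb7b and Cd40lg, also on that list, were within the range of the other arrays in isotype replicate 1. In sorted bulk cells, a smaller share of a cell type and less RNA per cell cannot be told apart. The part of these marker levels in the results below was not tested.

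None of the 33 tested members was called with all 8 arrays (limma), where 2.53% of all tested genes were called (304 genes). Of these 148 were higher (1.23%) and 156 lower (1.3%), or 204 and 427 after quantile normalization. At an unadjusted p below 0.05, 2 members were higher, against 11.5% of all tested genes, and 4 were lower, against 8.53% (20% in either direction). The groups did not overlap for 2 members, Abcg1 above and Fads1 below, against 9.32% above, 5.99% below and 15.3% either way of all tested genes. The largest differences were those of Abcg1, a sterol exporter, at 0.82, and Fads1, a fatty acid desaturase, at −0.79. The members' median difference was −0.03, with 16 higher and 17 lower, beside a median of 0.03 over all tested genes. For 26 of the 33 members the 95% interval lay within a 2-fold change in either direction, so larger changes were outside the interval for these. The other 7 had wider or shifted intervals, and 3 members below the limit for dim genes, Scd1, Fads2 and Abca1, were read from a fit without that limit, in which 0.654% of 22180 genes and none of the 36 members were called. Scd1 and Fads2 had unadjusted p of 0.0133 and 0.0136 there (limma).

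**Figure D1:**
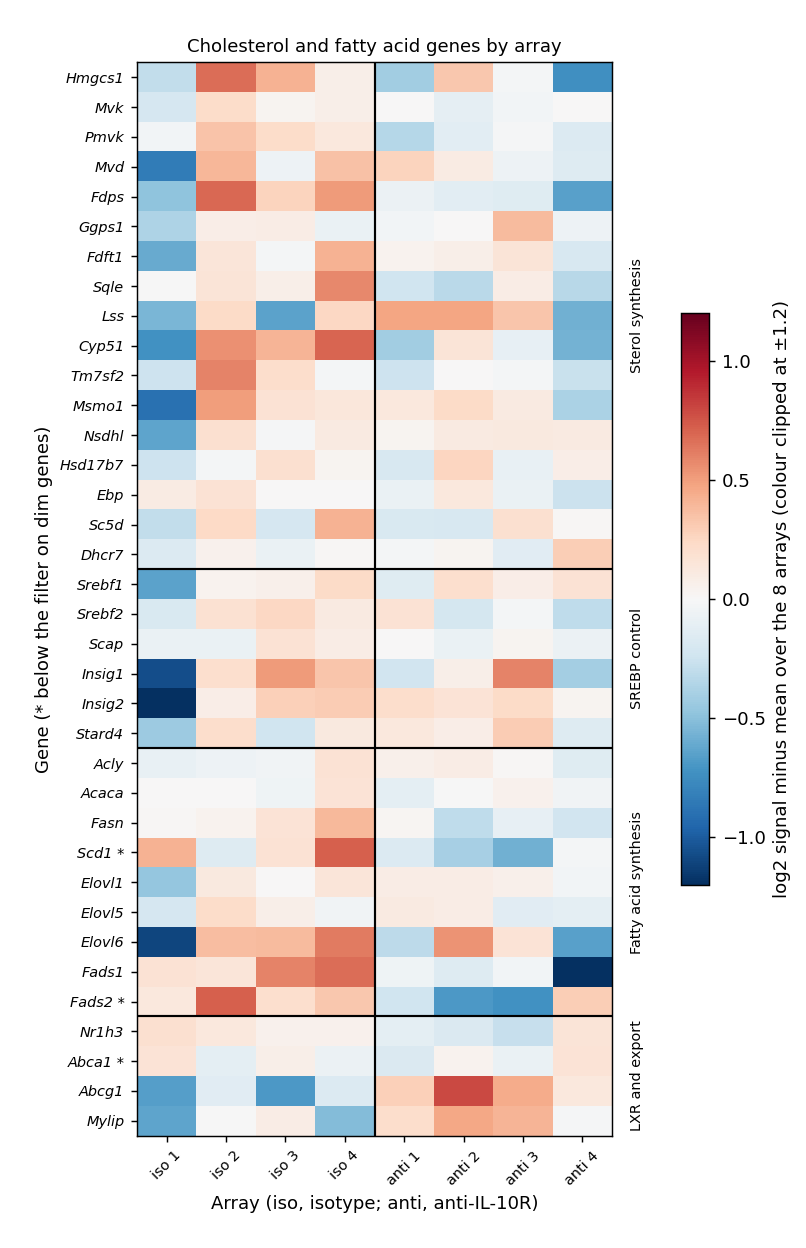
Colour gives the log2 signal of each of the 36 measured genes minus its mean over the 8 arrays, cut off at ±1.2, with genes from top to bottom by branch (* below the limit for dim genes) and arrays from left to right (iso, isotype; anti, anti-IL-10R). Isotype replicate 1 was the lowest isotype array for 26 of the 33 tested genes, and Abcg1 and Fads1 are the tested genes whose groups did not overlap.

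Isotype replicate 1 had the lowest isotype signal for 26 of the 33 tested members, a position it held for 53.6% of all tested genes. It was the lowest of all 8 arrays for 18 members, against 41.2% of all tested genes. In the anti-IL-10R group, replicate 4 was the lowest array for 21 of the 33 members, against 34.3% of all tested genes. The members' SD was larger among the isotype than among the anti-IL-10R arrays for 25 of 33, with medians of 0.30 and 0.18. The share of all tested genes for this count is not given here. The median isotype SD was 0.14 without isotype replicate 1. The differences of 31 members were then lower than with all arrays, which restates that this array lay below the mean of the other isotype arrays for them. Of the 33 members, 27 then lay below 0, beside 6139 of the 12019 tested genes, whose median was −0.01. In that fit 3 members were called, Fdps and Cyp51 lower and Abcg1 higher, where 3.35% of the tested genes were called higher and 5.9% lower (9.25% in all). The groups did not overlap for 7 members, 1 above and 6 below, against 11.3% above and 14.2% below of all tested genes (25.5% in all).

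Sterol synthesis enzymes had a median difference of −0.06, with 8 of 17 higher and 9 lower, and none was called. Leaving out isotype replicate 1 gave a median of −0.19, with 14 of 17 lower and 2 called, both lower (5.9% of all tested genes were called lower in that fit), and leaving out isotype replicate 4 gave 0.04. Hmgcs1, Pmvk, Fdps, Sqle and Cyp51 had the lowest differences, −0.50 to −0.33, and the other 12 enzymes lay between −0.26 and 0.36.

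At the entry to the pathway, Hmgcs1, the synthase that makes HMG-CoA, had isotype signals of 7.07, 8.04, 7.78 and 7.44 in replicates 1 to 4. The anti-IL-10R signals were 6.95, 7.69, 7.35 and 6.63. The groups overlapped, and the lowest array was anti-IL-10R replicate 4. Its difference was −0.43 ± 0.26 (SE, limma adjusted p = 0.407), and −0.60 ± 0.24 without isotype replicate 1 (adjusted p = 0.144). It was nearer 0 without isotype replicate 2 (−0.28) and without anti-IL-10R replicate 4 (−0.25). The 3 enzymes that turn mevalonate into isopentenyl diphosphate differed little or overlapped. Pmvk, phosphomevalonate kinase, had isotype signals of 8.48, 8.86, 8.73 and 8.64 and anti-IL-10R signals of 8.18, 8.38, 8.50 and 8.35. Its highest anti-IL-10R array lay just above isotype replicate 1 and below the other isotype arrays. The difference was −0.33 ± 0.12, with an adjusted p of 0.177 by limma, and 0.0535 without isotype replicate 1. Mvk, mevalonate kinase, differed by −0.06 ± 0.11. Mvd, the decarboxylase, differed by 0.07 ± 0.25, and its sign turned without isotype replicate 1 (−0.19 ± 0.15).

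Fdps, which makes farnesyl diphosphate, stands where the route to sterols meets those to other isoprenoids. Its isotype signals were 8.17, 9.34, 8.92 and 9.16, and its anti-IL-10R signals 8.58, 8.52, 8.51 and 8.0. Every anti-IL-10R array lay below isotype replicates 2 to 4, whereas isotype replicate 1 lay within the range of the anti-IL-10R arrays. With all arrays the difference was −0.50 ± 0.25 (SE, limma adjusted p = 0.300). Without isotype replicate 1 it was −0.74 ± 0.16, which is 1.67-fold lower (95% interval of the log2 difference −1.10 to −0.38, limma adjusted p = 0.0249, 3 isotype and 4 anti-IL-10R arrays). Ggps1, which extends farnesyl to geranylgeranyl diphosphate for protein prenylation, differed by 0.14 ± 0.15, with overlapping groups.

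The first steps committed to sterol were not alike in their values. Fdft1, squalene synthase, differed by 0.04 ± 0.20, and by −0.16 ± 0.13 without isotype replicate 1. Sqle, squalene epoxidase, a rate-limiting step, had isotype signals of 8.36, 8.53, 8.44 and 8.95 and anti-IL-10R signals of 8.13, 8.05, 8.46 and 8.04. Of the anti-IL-10R arrays, 3 lay below every isotype array, and replicate 3 lay among them. The difference of Sqle was −0.40 ± 0.16, 1.32-fold lower, with an adjusted p of 0.198 by limma, and 0.0857 without isotype replicate 1. Lss, which closes the ring to lanosterol, had isotype signals of 6.01, 6.80, 5.93 and 6.81 and anti-IL-10R signals of 7.04, 7.04, 6.90 and 5.99. Of the anti-IL-10R arrays, 3 were above every isotype array, and replicate 4 was near the isotype minimum. Its difference was 0.36 ± 0.29 (adjusted p = 0.546 by limma), 0.61 without anti-IL-10R replicate 4, and 0.20 without isotype replicate 3.

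Beyond lanosterol, Cyp51, the lanosterol demethylase, had isotype signals of 6.01, 7.28, 7.14 and 7.43. Its anti-IL-10R signals were 6.31, 6.89, 6.64 and 6.17. As for Fdps, all anti-IL-10R arrays lay below isotype replicates 2 to 4, and isotype replicate 1 was lower still. The difference was −0.46 ± 0.30 with all arrays (SE, limma adjusted p = 0.433). Without isotype replicate 1 it was −0.78 ± 0.17, 1.72-fold lower (95% interval −1.16 to −0.40 on the log2 scale, limma adjusted p = 0.0247). The difference of Cyp51 was −0.31 without isotype replicate 4. The 7 later enzymes, the reductases, demethylation partners and isomerase Tm7sf2, Msmo1, Nsdhl, Hsd17b7, Ebp, Sc5d and Dhcr7, differed by −0.26 to 0.18, and their groups overlapped. Tm7sf2, a sterol C14 reductase, had the lowest of these values (−0.26 ± 0.18, and −0.39 ± 0.15 without isotype replicate 1, where its adjusted p by limma was 0.133). Its difference was −0.11 when isotype replicate 2 was left out. Msmo1, a methylsterol oxidase, had signals of 6.52, 7.92, 7.60 and 7.56 in isotype and of 7.55, 7.65, 7.52 and 7.04 in anti-IL-10R arrays. Its difference of 0.04 ± 0.28 became −0.25 ± 0.16 without isotype replicate 1. Dhcr7, the last enzyme of the route, differed by 0.09 ± 0.12, with a 95% interval of −0.18 to 0.36.

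**Figure D2:**
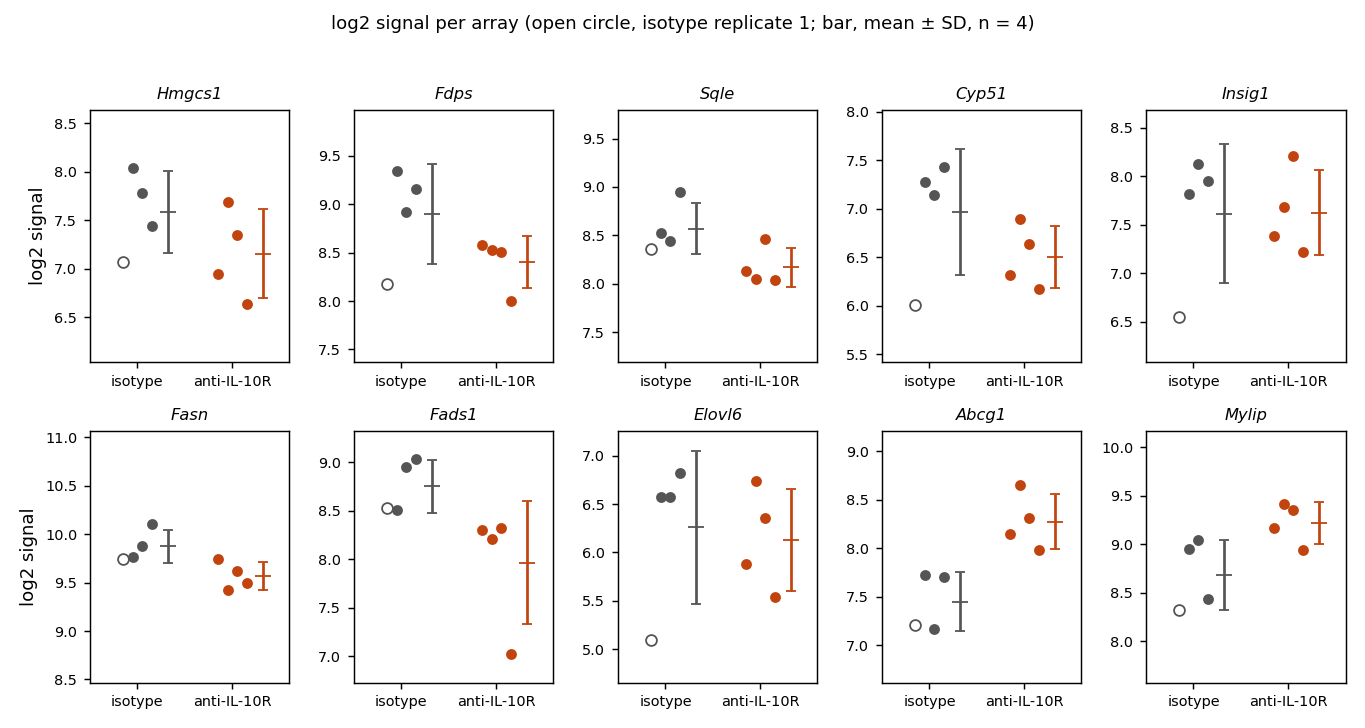
Points give the log2 signal of 10 genes on each array of the isotype and anti-IL-10R groups, on axes of equal span, and bars give mean ± SD (n = 4). The open circle, isotype replicate 1, lies far below the other isotype arrays for Fdps, Cyp51, Insig1 and Elovl6, while the groups of Abcg1 and Fads1 do not overlap.

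Nearly all sterol enzymes with a promoter window shared a feature that the choice of members did not use. Promoter windows, 250 bases before to 50 after the start of a gene (RefSeq, GRCm38.p6), were at hand for 32 of the 40 members. Fdps, Sqle and Fdft1 were among those without one, as were Stard4, Scd1, Scd2, Fads1 and Abcg1. The letters CCAAT, the core bound by the factor NF-Y that works beside SREBP at sterol genes, were searched on both strands. They occurred in 15 of 16 listed sterol enzymes with a window, Acat2 being the exception, in 4 of 5 genes of SREBP control, in 4 of 7 of fatty acid synthesis and in 1 of 4 of LXR and export. Of tested genes with a window 42.2% held the motif, as did 37.4% of all windows. The core TCACCCCAC of the sterol regulatory element, extended by the 1 base before it in the classical element, occurred in none of these 32 members and in 0.0913% of all windows. The core itself, which lies inside the longer motif and was searched after that result, occurred in Hmgcs1 alone among the 32 and in 0.551% of all windows. The windows of Hmgcs1, with that core, and of Cyp51, called lower without isotype replicate 1, are shown from 250 bases before the start up to it, 5′ to 3′ on the gene's strand. Hmgcs1 lies at chr13:119690101-119690350 on the plus strand and Cyp51 at chr5:4104698-4104947 on the minus strand. Capitals mark CCAAT, read as ATTGG on the other strand, and the core TCACCCCAC.
Hmgcs1: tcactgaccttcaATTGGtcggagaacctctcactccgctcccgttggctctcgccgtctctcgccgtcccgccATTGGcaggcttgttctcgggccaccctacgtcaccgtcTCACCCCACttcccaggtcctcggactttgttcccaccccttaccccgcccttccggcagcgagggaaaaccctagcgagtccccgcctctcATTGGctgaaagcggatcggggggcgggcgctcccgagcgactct
Cyp51: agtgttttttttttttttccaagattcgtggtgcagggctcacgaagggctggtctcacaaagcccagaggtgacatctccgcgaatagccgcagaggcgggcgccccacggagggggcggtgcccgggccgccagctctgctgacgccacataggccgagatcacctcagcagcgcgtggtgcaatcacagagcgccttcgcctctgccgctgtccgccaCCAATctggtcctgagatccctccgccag
Hmgcs1 held 3 CCAAT motifs and 1 core in this stretch, and Cyp51 held 1 CCAAT. A match describes letters only, and neither gene was called with all arrays.

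Genes of SREBP control showed no call in either direction. Their median difference was 0.08, with 4 of 6 higher, and −0.08, with 1 of 6 higher, without isotype replicate 1. Srebf2, which encodes the factor that mainly drives sterol genes, had isotype signals of 9.18, 9.55, 9.62 and 9.48 and anti-IL-10R signals of 9.54, 9.16, 9.35 and 9.06. The groups overlapped, and the difference was −0.18 ± 0.14 (SE, limma adjusted p = 0.537). Srebf1, whose product drives mainly fatty acid genes and which is itself an LXR target, differed by 0.16 ± 0.19, and by −0.03 ± 0.11 without isotype replicate 1. Scap, the escort protein, differed by −0.05 ± 0.10, the narrowest estimate of the branch (95% interval −0.29 to 0.18). Insig1, the sterol-sensing retention protein and itself an SREBP target, had isotype signals of 6.55, 7.82, 8.13 and 7.95. Its anti-IL-10R signals were 7.39, 7.69, 8.21 and 7.21. The difference was 0.01 ± 0.34, and −0.34 ± 0.21 without isotype replicate 1 (adjusted p = 0.345 by limma). Insig2, its paralog, was at 6.19 in isotype replicate 1, 7.58, 7.79 and 7.81 in the other isotype arrays, and 7.71, 7.67, 7.73 and 7.53 in the anti-IL-10R arrays. Its difference was 0.32 ± 0.32 with all arrays and −0.06 ± 0.10 without that one. Stard4, a sterol transfer protein, differed by 0.17 ± 0.17 (limma adjusted p = 0.615), and by 0.06 ± 0.14 without isotype replicate 1.

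Fatty acid synthesis genes had a median difference of −0.06 over the 7 that passed the limit for dim genes, with 2 higher and 5 lower, and none was called. It was −0.10 without isotype replicate 1, with all 7 below 0, and without anti-IL-10R replicate 4 it was 0.01. The lower values were those of the desaturases and of Fasn, while the enzymes that supply and start the chain were level between the groups. Acly, which makes cytosolic acetyl-CoA from citrate, differed by 0.01 ± 0.11 (95% interval −0.23 to 0.26). Acaca, acetyl-CoA carboxylase, differed by −0.06 ± 0.10 (−0.29 to 0.17). Fasn, fatty acid synthase, had isotype signals of 9.74, 9.76, 9.88 and 10.11 and anti-IL-10R signals of 9.75, 9.42, 9.62 and 9.49. Only anti-IL-10R replicate 1 reached the isotype range. The difference of Fasn was −0.30 ± 0.12 (SE, limma adjusted p = 0.219), and −0.35 ± 0.12 without isotype replicate 1 (adjusted p = 0.102).

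Fads1, the delta-5 desaturase of long polyunsaturated fatty acids, had isotype signals of 8.53, 8.51, 8.95 and 9.03. The anti-IL-10R signals were 8.31, 8.21, 8.33 and 7.02. All anti-IL-10R arrays were lower than all isotype arrays, and replicate 4 was far below the rest. The difference was −0.79 ± 0.29, 1.73-fold lower (95% interval −1.43 to −0.15 on the log2 scale, limma adjusted p = 0.167), and −0.48 without anti-IL-10R replicate 4 (adjusted p = 0.201). Fads2, the delta-6 desaturase, was below the limit for dim genes. Its isotype signals were 5.36, 5.94, 5.43 and 5.55 and its anti-IL-10R signals 4.99, 4.54, 4.50 and 5.53. Its difference was −0.68 ± 0.23, with an adjusted p of 0.208 by limma over all 22180 genes. Scd1, the stearoyl-CoA desaturase, was dimmer, with 3.95, 3.37, 3.70 and 4.25 in isotype and 3.36, 3.13, 2.95 and 3.5 in anti-IL-10R arrays. Its difference of −0.58 ± 0.19 (adjusted p = 0.206 over all genes by limma) lies where signals of dim probes are uncertain in size. The elongases Elovl1 and Elovl5 differed by 0.10 ± 0.14 and −0.03 ± 0.12. Elovl6, which extends palmitate, had isotype signals of 5.09, 6.57, 6.57 and 6.82 and anti-IL-10R signals of 5.88, 6.74, 6.36 and 5.54. Its difference of −0.13 ± 0.39 was −0.52 ± 0.25 without isotype replicate 1 (adjusted p = 0.208 by limma), and it was above 0 when isotype replicate 4 (0.05) or replicate 4 of the anti-IL-10R group (0.06) was left out.

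**Figure D3:**
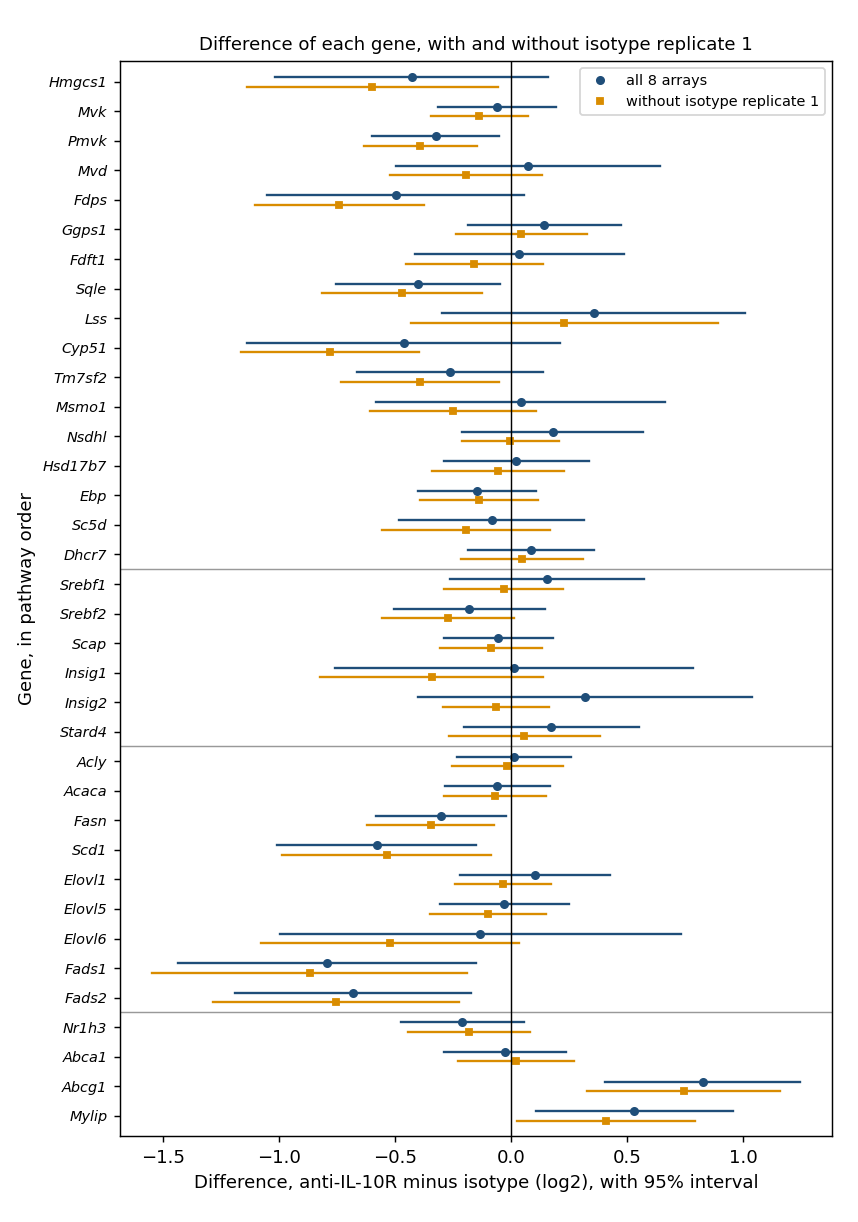
Points give the difference of each of the 36 measured genes, as anti-IL-10R less isotype mean in log2 units, and lines its 95% interval, with all 8 arrays (circles) and without isotype replicate 1 (squares). Intervals of Fdps and Cyp51 narrow and leave 0 without that array, and Abcg1 lies above 0 in both fits.

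LXR and export genes held the member with the highest difference. Abcg1, a transporter that moves sterol out of cells and a well-known LXR target, had isotype signals of 7.20, 7.72, 7.17 and 7.70. The anti-IL-10R signals were 8.15, 8.65, 8.31 and 7.98. Every anti-IL-10R array was above every isotype array. The difference was 0.82 ± 0.19, 1.77-fold higher (95% interval 1.32 to 2.37-fold), with a limma adjusted p of 0.0530, which missed the threshold. Without isotype replicate 1 it was 0.74 ± 0.18 (limma adjusted p = 0.0379), and over the settings tried it was 0.70 to 0.92, with adjusted p of 0.0172 to 0.148. Mylip, a ubiquitin ligase that removes lipoprotein receptors and another LXR target, had isotype signals of 8.32, 8.95, 9.04 and 8.43 and anti-IL-10R signals of 9.16, 9.41, 9.36 and 8.94. Only anti-IL-10R replicate 4 lay within the isotype range. Its difference was 0.53 ± 0.19 (SE, limma adjusted p = 0.159), and 0.41 ± 0.17 without isotype replicate 1 (adjusted p = 0.156). Nr1h3, which encodes LXR alpha, had isotype signals of 5.95, 5.89, 5.81 and 5.81 and anti-IL-10R signals of 5.64, 5.59, 5.48 and 5.91. Its difference was −0.21 ± 0.12 (adjusted p = 0.367 by limma), close to the limit for dim genes. Abca1, the exporter that loads apolipoproteins and is an LXR target as well, was below that limit, at 4.32 to 4.59 in isotype and 4.26 to 4.60 in anti-IL-10R arrays. It differed by −0.03 ± 0.12, with a 95% interval of −0.29 to 0.24. The 3 tested genes of this branch had a median of 0.53, and the 4 measured ones a median of 0.25. The promoter window of Mylip is shown for comparison with the sterol enzymes, since it is the sole measured gene of this branch with CCAAT in its window. It lies at chr13:45389492-45389741 on the plus strand and is printed as above, with 3 CCAAT motifs in capitals. The LXR direct repeat, AGGTCA followed after 4 bases of any kind by AGGTCA on either strand, occurred in none of the 32 members with a window, and in 0.0152% of all windows. Abcg1 was not among the genes searched, since it had no window.
Mylip: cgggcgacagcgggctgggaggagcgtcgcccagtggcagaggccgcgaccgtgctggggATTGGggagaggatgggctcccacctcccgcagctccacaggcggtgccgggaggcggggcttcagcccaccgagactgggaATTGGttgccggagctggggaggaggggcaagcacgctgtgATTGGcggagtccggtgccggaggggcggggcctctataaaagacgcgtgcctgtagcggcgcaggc

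The branches were set side by side by array, as the mean deviation of their tested genes from each gene's own mean. Sterol synthesis stood at −0.38, 0.31, 0.063 and 0.22 in isotype replicates 1 to 4, and at −0.08, 0.0596, 0.04 and −0.23 in the anti-IL-10R replicates. Fatty acid synthesis stood at −0.24, 0.12, 0.16 and 0.30 in isotype and at −0.03, 0.05, 0.002 and −0.37 in anti-IL-10R arrays. In both branches isotype replicate 1 was lower than every other isotype array, and isotype replicates 2 to 4 were above all 4 anti-IL-10R arrays, by little for replicate 3 in sterol synthesis. Over all tested genes the mean signal was 7.21, 7.44, 7.43 and 7.45 in isotype replicates 1 to 4. It was 7.42, 7.43, 7.43 and 7.38 in the anti-IL-10R replicates. Isotype replicate 1 and anti-IL-10R replicate 4 were thus the lowest of their groups over all tested genes too. LXR and export stood at −0.36, −0.005, −0.18 and −0.21 in isotype and at 0.13, 0.36, 0.19 and 0.09 in anti-IL-10R arrays, so that its groups did not overlap. SREBP control stood at −0.62, 0.11, 0.17 and 0.20 in isotype and at 0.02, 0.04, 0.20 and −0.12 in anti-IL-10R arrays. These levels describe the listed genes and were not tested against each other. The LXR value rests on 3 genes, of which Abcg1 and Mylip were higher and Nr1h3 was lower in the anti-IL-10R means.

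**Figure D4:**
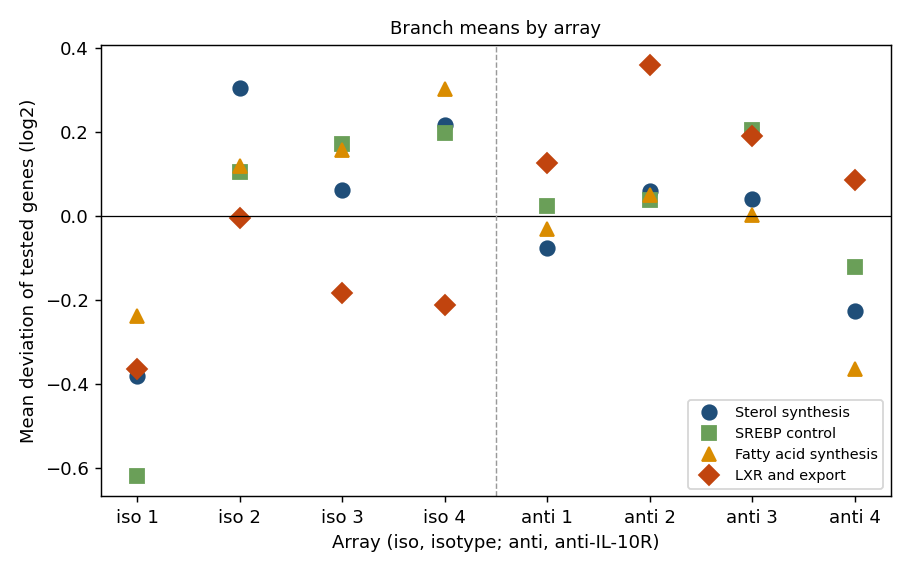
Points give, for each array (iso, isotype; anti, anti-IL-10R), the mean over the tested genes of a branch of the log2 signal minus the gene's mean over the 8 arrays. LXR and export genes lie at −0.36 to −0.005 in isotype and at 0.09 to 0.36 in anti-IL-10R arrays. Isotype replicate 1 is the lowest isotype array in every branch, as it is in mean signal over all tested genes (7.21, against 7.43 to 7.45).

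Other genes of these routes came from a list of 63 chosen by their known roles, of which 54 were measured and 40 passed the limit for dim genes. None was called with all arrays (limma), and at an unadjusted p below 0.05, 8 of 40 were higher, against 11.5% of all tested genes, and 1 was lower, against 8.53%. Their median difference was 0.06, with 24 higher and 16 lower, beside 0.03 over all tested genes. The groups did not overlap for 6 of them, all above, against 9.32% of all tested genes above. By role, the median was −0.08 over 10 genes of isoprenoid and sterol synthesis, 0.12 over 6 of SREBP processing and 0.04 over 13 of fatty acid metabolism. It was 0.40 over 8 genes of sterol uptake, storage and transport and 0.23 over 3 of LXR and oxysterols. Without isotype replicate 1 these medians were −0.12, −0.05, −0.002, 0.23 and 0.03. The 4 with the smallest p were Abca7, Pdss2, Npc1 and Lpin1, and in each every anti-IL-10R array was above every isotype array. Abca7, a lipid transporter related to Abca1, had isotype signals of 8.74, 8.44, 8.85 and 8.75 and anti-IL-10R signals of 9.19, 9.29, 9.42 and 9.0 (difference 0.53 ± 0.13, limma adjusted p = 0.0676). Pdss2, a subunit of the enzyme that makes the ubiquinone side chain, differed by 0.55 ± 0.15 (adjusted p = 0.0859 by limma). Npc1, which releases cholesterol from lysosomes, differed by 0.50 ± 0.15, and Lpin1, a phosphatidate phosphatase, by 0.64 ± 0.20 (adjusted p 0.105 and 0.125 by limma).

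Without isotype replicate 1, 4 of these 40 other genes were called, 2 higher and 2 lower, near the 9.25% of all tested genes called in that fit (3.35% higher, 5.9% lower). Scarb1, the receptor that exchanges cholesterol with high density lipoprotein, had isotype signals of 5.74, 7.29, 6.97 and 7.35 and anti-IL-10R signals of 6.29, 6.42, 5.80 and 6.26. Its difference was −0.65 ± 0.33 with all arrays (limma adjusted p = 0.312) and −1.01 ± 0.16 without isotype replicate 1 (limma adjusted p = 0.00920). Mid1ip1, which promotes the assembly of acetyl-CoA carboxylase, differed by −0.45 ± 0.15 with all arrays and by −0.59 ± 0.10 without that array (limma adjusted p = 0.0112). Gramd1a, which carries cholesterol from the plasma membrane to the endoplasmic reticulum, differed by 0.64 ± 0.21 and, without that array, by 0.41 ± 0.11 (limma adjusted p = 0.0466). Abca7 was the other called gene, at 0.54 ± 0.14 (limma adjusted p = 0.0378). Scarb1, Mid1ip1 and Gramd1a were named after their values were seen.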

How the data were processed

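RNA of sorted cells was hybridised to GeneChip Mouse Gene 2.0 ST arrays after labelling by the WT Pico procedure, per the labels' protocols. Their range shows that the authors deposited log2 values. The submitters' processing notes name Affymetrix Power Tools as the software, while its version and how probes were summarised and arrays normalized is not given in the sources used here. Array medians were 5.19 to 5.31. With 4 arrays per group, array number limits the precision. Of 41345 rows, 23521 had 1 gene symbol in the platform's annotation and 1814 had several.

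Groups were compared with limma 3.58.1 under R 4.3.3, by lmFit followed by eBayes with no trend (two-sided, Benjamini-Hochberg over 12019 genes, total degrees of freedom 9.59). The limit of 5.24 is the median of the row means over 8 arrays. The fit was tested on simulated data, drawn independently for each gene and array with the same spread in both groups. No simulated array stood apart as isotype replicate 1 does, so that test does not cover such an array. The labels do not say that each array is a separate animal, so p-values measure the spread between these samples, which may be technical.

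The members and lists were chosen with earlier results of these data known. All members could be named. Full statistics were planned for members called in the main fit or in any fit that leaves out 1 array. They were also planned for the 2 members with the smallest p in each branch. Some other members, among them Hmgcs1, Lss, Insig1 and Elovl6, were also given in detail, outside that rule. Of the other genes, those called and the 4 with the smallest p were named. Alternatives were other filters on dim genes, quantile normalization, centring, the mean of a gene's rows, trended and robust variance, a block for the replicate number, array weights (statmod 1.5.0), and each array left out.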

Additional observations from a re-analysis of the deposited data

Results flagged for a closer look

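In 72 sets of 4 values, 1 for each measured member and group, 7 had an array whose gap to its neighbour was too large a part of the set's range by Dixon's criterion at the 95% level, which chance gives in about 1 in 20 sets. Isotype replicate 1 was the low array for Insig2 (6.19, next value 7.58) and Elovl6 (5.09, next value 6.57). Anti-IL-10R replicate 4 was the low array for Fads1 (7.02, next value 8.21), Fdps (8.0, next value 8.51) and Lss (5.99, next value 6.90). Anti-IL-10R replicate 1 was the low array for Nsdhl (8.64, next value 8.71), and replicate 3 was the high array for Ggps1 (9.33, next value 8.96).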

How the results depend on the processing

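The count of called genes was 304 with all arrays, 145 with no filter on dim genes, 460 with a stricter filter (6.97), 631 after quantile normalization, 117 with each array centred and 1469 with array weights. With 1 array left out it spanned 3 to 1112. The count of called members was 0, and it was 1 (Abcg1) with the stricter filter, after quantile normalization and with trended and robust variance, 3 (Abcg1, Fdps and Cyp51) with array weights, and 0 to 3 with 1 array left out. That of the other listed genes was 0, then 1 with the stricter filter, 1 after quantile normalization, 7 with array weights, and 0 to 4 with 1 array left out. The settings had been planned for the members, and their use on the other listed genes was added after the data were seen. Same-numbered arrays did not deviate together (correlations −0.16 to 0.12), and 2 of 8 arrays correlated best with their own number. With the replicate block 4 genes and 0 members were called. The 4 branch medians moved by less than the spread between arrays in every alternative run. That spread, the SD of a branch's median signal within groups, was 0.21 to 0.38. It was larger than the size of the main median in every branch but LXR and export, so this check cannot show that the other medians are stable. Those of sterol synthesis (−0.19 to 0.04), SREBP control (−0.08 to 0.18) and fatty acid synthesis (−0.15 to 0.01) crossed 0. Of the 33 tested members, 14 changed sign in at least 1 alternative, none of them called: Acly, Elovl1, Elovl5, Elovl6, Fdft1, Hsd17b7, Insig1, Insig2, Msmo1, Mvd, Mvk, Nsdhl, Sc5d and Srebf1. Leaving out isotype replicate 1 or weighting the arrays gave the calls of Fdps and Cyp51, and the cause was not tested.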
